A study of Homo sapiens with 12 samples.

Results

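Lipoprotein assembly and secretion was followed in HepG2 cells across a time course of insulin through 10 genes: APOB, MTTP, APOE, APOC3, APOA5, APOA1, APOA2, APOM, APOH and LIPC. They were chosen by name, as the apolipoproteins and lipid-handling partners that a liver cell places on very-low-density lipoprotein (VLDL) and high-density lipoprotein (HDL), and make up 10 of the 26364 genes in the count table. All 10 were counted highly enough to be among the 13852 genes tested. RNA was sequenced from HepG2, a line derived from a human liver carcinoma, at 0, 5, 10, 30 and 240 min after insulin, with 2 libraries for each time and so 10 in all. The 0 min libraries were the unstimulated controls, and the label text that is repeated on every RNA library names 3 nM insulin. All groups were the same line grown in EMEM medium, with no altered gene named in the labels. For insulin-sensitive HepG2 cells the study's methods describe culture with 0.1 nM insulin and a washout before stimulation, so the controls too had met insulin if the RNA samples were grown that way. An immunoprecipitation of chromatin with an antibody to the insulin receptor (IR) from the same line gave 1 table of bound regions.

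VLDL is built in the endoplasmic reticulum of the hepatocyte. The microsomal triglyceride transfer protein, encoded by MTTP, loads lipid onto the nascent chain of apoB, and each particle keeps a single apoB molecule for its lifetime. Smaller apolipoproteins such as apoE and apoC-III exchange between particles in plasma, whereas apoA-I, apoA-II and apoM travel mainly on HDL. In the liver, insulin is known to restrain VLDL secretion, in part by keeping the forkhead factor FOXO1, an activator of MTTP and APOC3, out of the nucleus.

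The DNA just upstream of the start site is shown for the 5 genes that fell at 240 min, because these are the windows in which the sites of such factors were searched. Each line holds the 250 bases before the start of the canonical transcript on hg19, written 5′ to 3′ in the direction of the gene, and capitals mark matches to the motifs described next.
MTTP chr4:100495731-100495980 (+ strand): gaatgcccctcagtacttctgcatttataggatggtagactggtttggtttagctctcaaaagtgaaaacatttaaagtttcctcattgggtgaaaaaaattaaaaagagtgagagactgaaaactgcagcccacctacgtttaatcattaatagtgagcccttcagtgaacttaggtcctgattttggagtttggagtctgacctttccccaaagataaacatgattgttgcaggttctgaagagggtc
APOE chr19:45408803-45409052 (+ strand): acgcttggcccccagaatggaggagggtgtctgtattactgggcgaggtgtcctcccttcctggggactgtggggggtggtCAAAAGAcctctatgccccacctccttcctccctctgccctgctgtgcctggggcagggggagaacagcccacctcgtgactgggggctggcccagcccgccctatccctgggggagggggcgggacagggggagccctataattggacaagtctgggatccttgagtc
APOA2 chr1:161193419-161193668 (- strand): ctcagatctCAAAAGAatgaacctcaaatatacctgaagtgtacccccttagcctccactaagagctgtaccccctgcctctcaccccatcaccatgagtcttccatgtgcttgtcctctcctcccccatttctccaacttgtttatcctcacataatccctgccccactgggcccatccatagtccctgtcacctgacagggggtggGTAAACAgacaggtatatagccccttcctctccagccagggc
APOM chr6:31623421-31623670 (+ strand): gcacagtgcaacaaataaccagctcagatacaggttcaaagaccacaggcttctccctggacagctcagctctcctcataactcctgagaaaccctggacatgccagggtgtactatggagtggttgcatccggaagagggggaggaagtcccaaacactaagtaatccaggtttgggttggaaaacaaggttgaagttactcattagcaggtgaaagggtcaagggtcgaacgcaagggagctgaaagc
LIPC chr15:58723940-58724189 (+ strand): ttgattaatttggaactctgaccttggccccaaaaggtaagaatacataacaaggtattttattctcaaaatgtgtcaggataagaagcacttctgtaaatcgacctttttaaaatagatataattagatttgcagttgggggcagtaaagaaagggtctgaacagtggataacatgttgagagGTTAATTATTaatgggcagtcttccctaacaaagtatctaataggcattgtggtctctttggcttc

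The motifs were searched on both strands and numbered 5: TGTTTAC (the FOXO and FOXA core), TNTTTTG (the core of the insulin response element), CAAAGTCCA (HNF4), the longer HNF1 motif and TCACNCCAC (SREBP). The forkhead core occurred in 2.27% of 20528 such promoters and in 1 of the 10 genes, APOA2, at 42 to 36 bases before the start. The insulin response core was in 12.7% of promoters and in 3 of the genes, APOA2, APOE and APOH. An HNF1 match, present in 0.258% of promoters, lay 66 to 57 bases before the LIPC start. Neither the HNF4 letters (0.292% of promoters) nor the SREBP letters (0.999%) were found in any of the 10 windows, and the windows of MTTP and APOM held none of the 5 motifs. No match overlapped another. These are matches of letters within a short window and were not tested for binding.

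Total counts on genes ranged from 18347109 to 45005769 per library, the deepest being 0 min replicate 2. Spike-in transcripts (ERCC) took 1.59 to 2.36% of the counts. The study's methods call the RNA-seq samples biologically independent and the experiment a single one, while the labels do not tie the libraries to cultures, so p-values measure only the spread between these libraries within that experiment. All 12 hepatocyte markers examined, albumin and transferrin among them, were counted highly enough to test. So were 8 of 18 markers of other cell types, led by VIL1 (335 to 366 CPM, or counts-per-million), ACTA2 (42.3 to 65.5 CPM) and CD68 (36.3 to 45.3 CPM). PTPRC, a marker of white blood cells, was at 0 counts. Because RNA came from whole cultures, fewer expressing cells and less RNA per cell cannot be told apart.

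APOB was the most counted gene in the table, with 3.64 to 4.01% of all counts per library. The 10 genes together took 4.14 to 4.55% of counts. Levels between genes are compared here per transcript length, in transcripts-per-million (TPM). On that scale APOA2 led with a median of 8212 TPM over the 10 libraries, followed by APOB at 6739, APOH at 3501, APOA1 at 2886 and APOE at 939.6 TPM. APOM had a median of 523.8 TPM, APOC3 147.8, MTTP 128.7, LIPC 77.3 and APOA5 24.3 TPM. Each gene in this order was above the next in 10 of 10 libraries, apart from APOC3, which was above MTTP in 9 of 10. Summed, the 10 genes made up 2.15 to 2.47% of all TPM. APOM is also listed on alternative copies of its chromosome 6 region, all at 0 TPM.

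**Figure D1:**
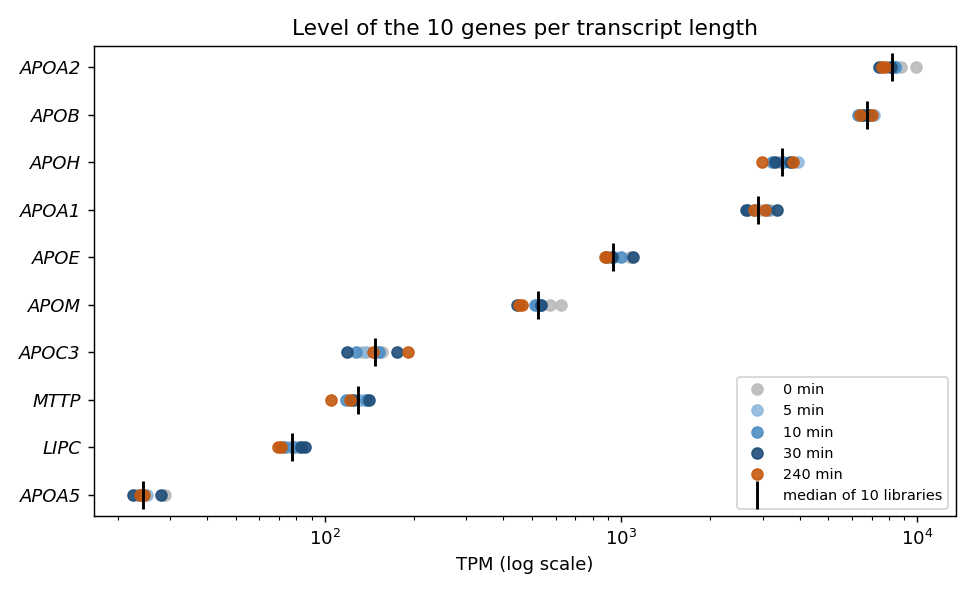
TPM (log scale) of each of the 10 genes, with 1 point per library coloured by time and a bar at the median of the 10 libraries. The order runs from APOA2 (median 8212 TPM) to APOA5 (24.3 TPM), and the points of APOC3 and MTTP overlap.

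The main comparison asked which of these genes had changed after 240 min of insulin. No later time had libraries without insulin, so an effect of insulin and one of elapsed time in culture cannot be told apart. Of the 10, 5 fell and 0 rose: APOM, APOA2, MTTP, LIPC and APOE (edgeR, quasi-likelihood test, adjusted p under 0.05). Over all genes tested, 20.4% were called lower and 20.6% higher at 240 min. The fitted log2 fold changes of the 10 genes ran from -0.44 to 0.17 with a median of -0.19, beside a median of -0.0026 over all genes. In these same 5 genes both 240 min libraries lay below both 0 min libraries, a separation seen in 34.9% of all genes. The size of the count rested on single libraries and on the scaling. It was 2 without 0 min replicate 2, 3 without 240 min replicate 2, 2 (APOA2 and APOM) in limma on log2 TPM, and 1 (APOM) when libraries were scaled to the spike-ins, a scaling that moved the median of all genes to -0.12 and the calls over all genes from 2847 higher and 2829 lower to 331 and 728.

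**Figure D2:**
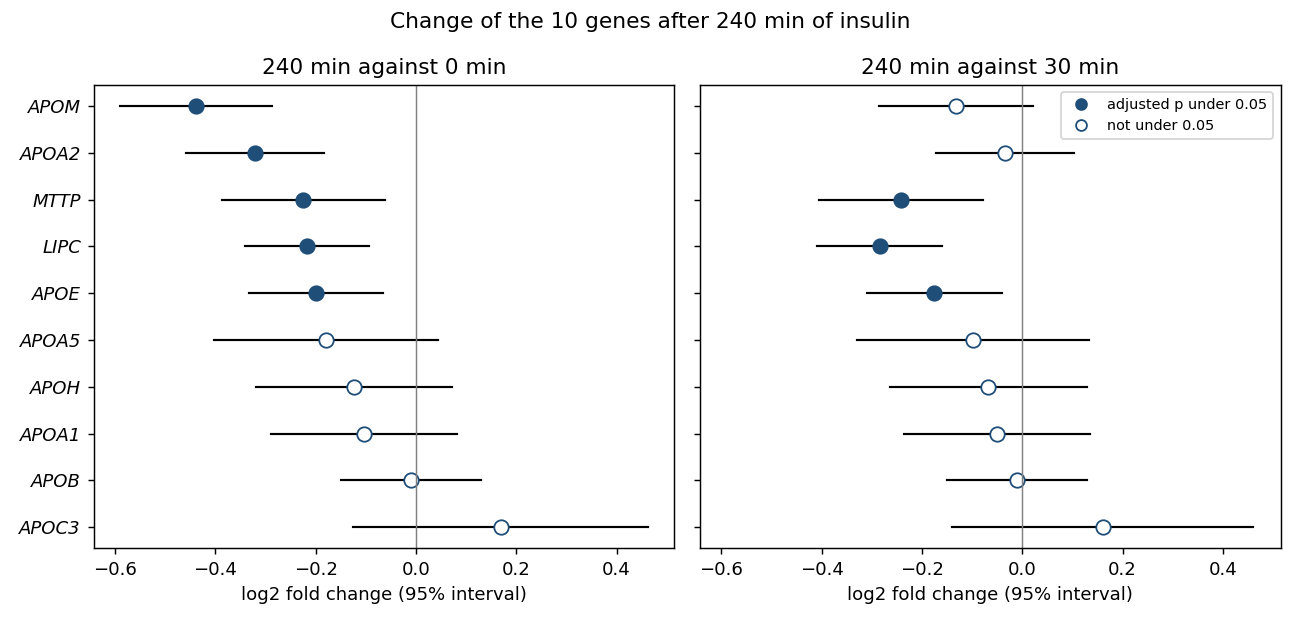
Log2 fold change of each gene at 240 min against 0 min (left) and against 30 min (right), with 95% intervals from edgeR (n = 2 libraries per time). Filled points passed an adjusted p of 0.05: 5 genes on the left and 3 on the right, all to the left of the line at 0.

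Against 30 min, 3 of the 10 fell at 240 min (LIPC, MTTP and APOE) and none rose, where 18.4% of all genes were called lower and 19.8% higher. The same 3 genes were the ones in which both 240 min libraries lay below both 30 min libraries, as did 32.3% of all genes. The median log2 change of the 10 genes against 30 min was -0.083. These 3 calls became 0 with spike-in scaling, 1 (LIPC) in limma on TPM, 1 (LIPC) without 240 min replicate 2 and 1 (LIPC) without 30 min replicate 1, where APOC3 was called higher (log2 change 0.51). Without 30 min replicate 2, 5 fell. Counts by gene follow in CPM, scaled between libraries by the TMM method of edgeR.

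APOB encodes the structural protein of VLDL. It stood at 37335 and 37923 CPM at 0 min, 38488 and 40927 after 5 min, 39155 and 36393 after 10 min, 38955 and 36353 after 30 min, and 39393 and 35389 CPM at 240 min. The 240 min libraries fell on either side of both control libraries, and the highest library of the series was at 5 min. Its log2 change at 240 min was -0.01 (95% interval -0.15 to 0.13, edgeR adjusted p = 0.926), with a sign that turned positive under other scalings such as upper-quartile (0.02). Both 5 min libraries lay above both 0 min libraries, as they did in 24.5% of all genes. The log2 change of 0.08 did not pass the test (edgeR adjusted p = 0.618).

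MTTP, the lipid-loading partner of APOB, was at 214 and 214 CPM at 0 min, 213 and 229 after 5 min, 225 and 197 after 10 min, 232 and 199 after 30 min, and 198 and 167 CPM at 240 min. Its lowest library of the series was 240 min replicate 2, and both 240 min libraries lay under both controls and both 30 min libraries. The mean went from 214 ± 0.065 (SD, n = 2) to 183 ± 22.3 CPM, a log2 change of -0.22 (95% interval -0.39 to -0.06, edgeR adjusted p = 0.0259). Against 30 min the change was -0.24 (edgeR adjusted p = 0.0188). Neither fall was called by DESeq2 (adjusted p = 0.148 against 0 min and 0.113 against 30 min). The former was also lost in edgeR without 240 min replicate 2 (log2 change -0.11, adjusted p = 0.32) and without either control library (adjusted p = 0.0763 and 0.0934), and the latter without 240 min replicate 2 or 30 min replicate 1 (log2 change -0.13 for each, edgeR adjusted p = 0.256 and 0.297).

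Set against APOB within each library, which needs no scaling between libraries, MTTP gave 0.573 and 0.563 counts per 100 APOB counts at 0 min. The ratio was 0.553 and 0.559 after 5 min, 0.573 and 0.542 after 10 min, 0.597 and 0.549 after 30 min, and 0.503 and 0.471 at 240 min. Both 240 min libraries were thus below the other 8, a pattern that was not counted over other pairs of genes. Being a ratio of counts, it follows the balance of the pair over time and says nothing of their molar amounts.

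APOE, which encodes a protein of VLDL remnants and HDL that aids their uptake, was at 489 and 534 CPM at 0 min and 477 and 468 after 5 min. It was at 488 and 455 CPM after 10 min, 539 and 467 after 30 min, and 460 and 431 at 240 min. All later libraries other than 30 min replicate 1 were below both controls, a pattern that was not counted over all genes. From 511 ± 32.3 to 446 ± 20.8 CPM (SD, n = 2), it fell by 0.20 on the log2 scale at 240 min (edgeR adjusted p = 0.0178) and by 0.18 against 30 min (edgeR adjusted p = 0.0368). Without 0 min replicate 2 the first of these was -0.13 (adjusted p = 0.21), and without 240 min replicate 2 it was -0.15 (edgeR adjusted p = 0.124). The change against 30 min became -0.07 without 30 min replicate 1 (edgeR adjusted p = 0.478) and -0.13 without 240 min replicate 2 (adjusted p = 0.202).

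APOC3 encodes an inhibitor of lipoprotein lipase and of remnant uptake. It was measured at 29.3 and 33.7 CPM at 0 min, 29.1 and 32.6 after 5 min, 32.8 and 28.0 after 10 min, 38.0 and 25.0 after 30 min, and 40.5 and 30.3 CPM at 240 min. The 30 min and 240 min pairs were spread widely around the controls, so that no direction was held by both libraries. Its log2 change of 0.17 at 240 min (95% interval -0.13 to 0.46, edgeR adjusted p = 0.359) did not pass the test and became -0.07 without 240 min replicate 1.

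APOA5, an enhancer of triglyceride hydrolysis in plasma and the least expressed of the genes, ranged from 17.1 to 22.6 CPM. It was at 18.5 and 22.6 CPM at 0 min, 17.9 and 19.7 after 5 min, 18.9 and 19.3 after 10 min, 21.9 and 17.1 after 30 min, and 18.79 and 17.98 CPM at 240 min. The 240 min libraries straddled the lower control, and the log2 change of -0.18 did not pass (95% interval -0.40 to 0.04, edgeR adjusted p = 0.19).

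APOA1 encodes the main protein of HDL. Its libraries held 1079 and 1152 CPM at 0 min, 1012 and 1019 after 5 min, 1116 and 982 after 10 min, 1219 and 931 after 30 min, and 1090 and 985 CPM at 240 min. The 2 libraries at 30 min were the highest and the lowest of the series. The log2 change at 240 min was -0.10 (95% interval -0.29 to 0.08, edgeR adjusted p = 0.369).

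APOA2 encodes another major protein of HDL. It was at 1918 and 1669 CPM at 0 min, 1597 and 1539 after 5 min, 1575 and 1620 after 10 min, 1556 and 1382 after 30 min, and 1469 and 1401 CPM at 240 min. Each of the 8 libraries after insulin lay below both controls, 5 min included. The share of all genes with this pattern was not counted. Time by time, both libraries lay below both controls in 23.9%, 19.1%, 19.8% and 34.9% of all genes at 5, 10, 30 and 240 min. At 240 min the level had gone from 1793 ± 176 to 1435 ± 47.7 CPM (SD, n = 2), a fall of 0.32 on the log2 scale (95% interval -0.46 to -0.18, edgeR adjusted p = 0.000644). Between 30 and 240 min the log2 change was -0.03 (95% interval -0.17 to 0.10, edgeR adjusted p = 0.727). Without 0 min replicate 1, its highest library, the fall at 240 min was 0.22 (edgeR adjusted p = 0.0229).

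APOM, which carries sphingosine-1-phosphate on HDL, moved most among the 10. It was counted at 196 and 176 CPM at 0 min, 163 and 160 after 5 min, 163 and 160 after 10 min, 165 and 134 after 30 min, and 140 and 133 CPM at 240 min. As for APOA2, all 8 later libraries were below both controls, a pattern that was not counted over all genes. The mean of 186 ± 13.7 CPM at 0 min became 137 ± 5.02 CPM at 240 min (SD, n = 2), which was 0.738 times the control level in the fit (log2 change -0.44, 95% interval -0.59 to -0.29, edgeR adjusted p = 7.8e-05). It was called lower at 240 min in all 14 fits with other settings and in all 10 that left out a library.

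APOH, a phospholipid-binding plasma glycoprotein also known as beta-2-glycoprotein I, was at 1688 and 1826 CPM at 0 min and 1672 and 1937 after 5 min. It was at 1697 and 1597 CPM after 10 min, 1810 and 1571 after 30 min, and 1821 and 1404 at 240 min. The 240 min pair was split around the controls and its change of -0.12 did not pass (edgeR adjusted p = 0.313). It was -0.33 without 240 min replicate 1 (edgeR adjusted p = 0.00724) and 0.05 without 240 min replicate 2.

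LIPC encodes hepatic lipase, which hydrolyses lipids of remnants and HDL. It was measured at 48.7 and 53.1 CPM at 0 min, 50.9 and 49.4 after 5 min, 50.0 and 47.4 after 10 min, 53.7 and 53.4 after 30 min, and 44.3 and 43.6 CPM at 240 min. Its 240 min libraries were the lowest of the series and its 30 min libraries the highest. The change was -0.22 against 0 min (95% interval -0.34 to -0.09, edgeR adjusted p = 0.00607) and -0.28 against 30 min (95% interval -0.41 to -0.16, edgeR adjusted p = 0.000857). Without 0 min replicate 2 the former became -0.15 (edgeR adjusted p = 0.14).

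**Figure D3:**
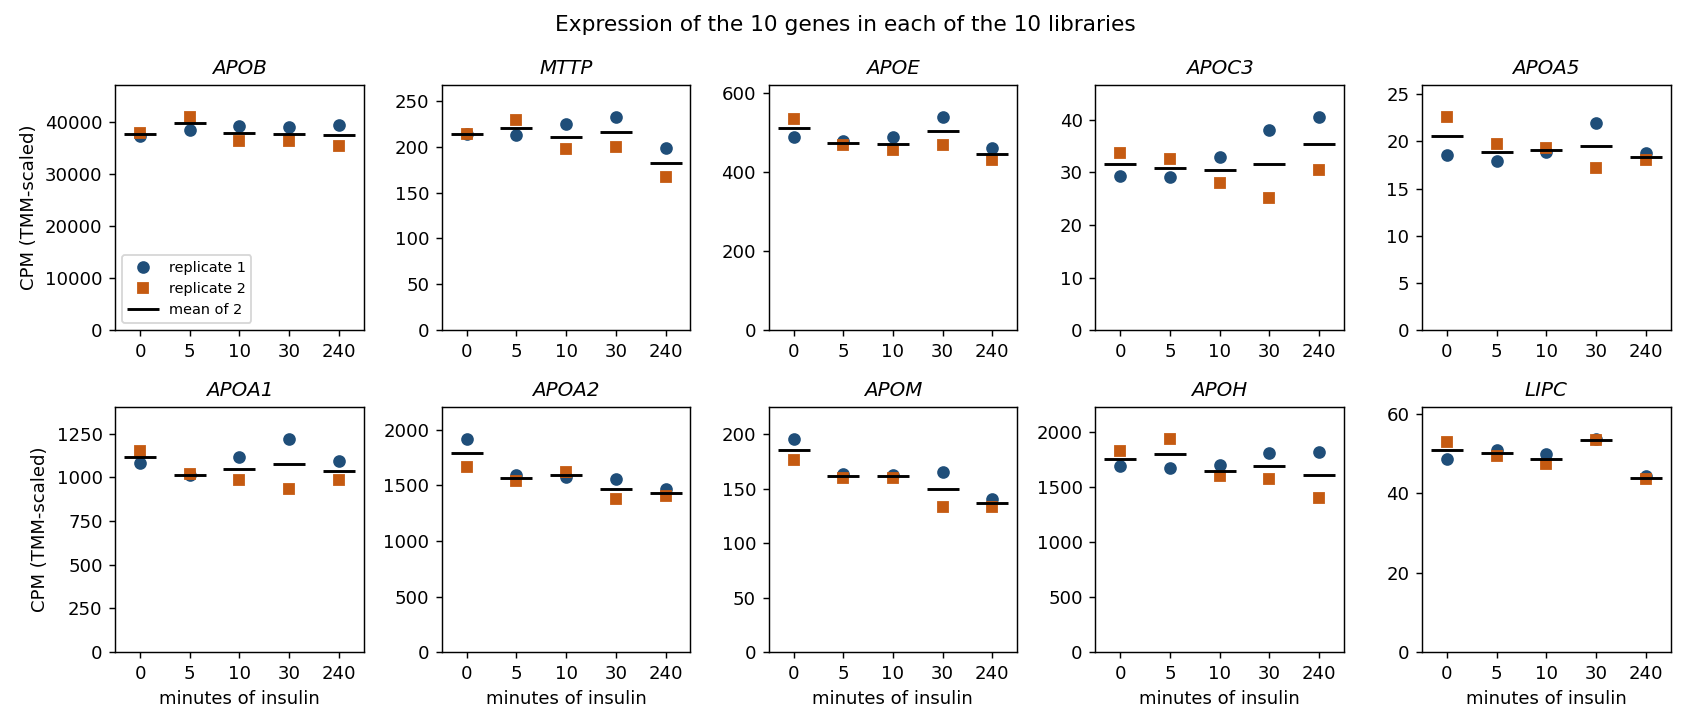
CPM of each gene (TMM-scaled, linear axes from 0) in the 10 libraries, against minutes of insulin at equal spacing, with replicate 1 as circles, replicate 2 as squares and the mean of 2 as a bar. APOA2 and APOM lay below both 0 min libraries in all 8 later libraries, a pattern not counted over all genes. MTTP and LIPC dropped at 240 min, and the APOB means stayed within 37391 to 39707 CPM.

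Within the first 30 min the question was whether any of these genes responded as quickly as the signalling itself. By edgeR, 0 of the 10 were called at 5, 10 or 30 min, against a background of 0%, 0.137% and 0.332% of all genes. At an unadjusted p under 0.05 there were 2 of 10 at each time, APOA2 and APOM, where 14.3%, 5.13% and 8.12% of all genes reached it. DESeq2 called 0 at 5 and 10 min and 2 at 30 min, again APOA2 (log2 change -0.28, DESeq2 adjusted p = 0.00517) and APOM (-0.31, DESeq2 adjusted p = 0.0265). Over all 13852 genes DESeq2 called 0, 26 and 54 at 5, 10 and 30 min. All of these comparisons share the 0 min libraries. The edgeR log2 changes of APOA2 were -0.19, -0.17 and -0.29 at 5, 10 and 30 min, and those of APOM were -0.20, -0.20 and -0.31. Those of MTTP were 0.05, -0.02 and 0.02 over the same times.

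Separation from the controls gave a like picture. Both libraries lay below both controls for 4 of the 10 genes at 5 min (23.9% of all genes), for 3 at 10 min (19.1%) and for 2 at 30 min (19.8%). APOA2 and APOM were among them each time. Tested for a difference at any time, 3 of the 10 passed (edgeR), where 38.3% of all genes did: APOM (adjusted p = 0.000954), APOA2 (adjusted p = 0.00407) and LIPC (edgeR adjusted p = 0.00891). MTTP (edgeR adjusted p = 0.0533) and APOE (edgeR adjusted p = 0.0879) did not.

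Across the 10 libraries the profiles of the genes were alike to varying degrees. The Pearson correlation of log2 CPM, which also holds whatever the libraries share in depth and handling, was highest for APOA2 with APOM (0.96), APOB with APOH (0.90), APOH with MTTP (0.81) and APOA1 with APOE (0.81). It was lowest for APOC3 with LIPC (-0.17), and the median over the 45 pairs was 0.49. Among 10378 genes, those most like MTTP were CYP8B1 (0.97), a bile acid synthesis enzyme, GLUD1 (0.96), the mitochondrial glutamate dehydrogenase, and KIAA1161 (0.95). Those most like APOB were ADH6 (0.94), an alcohol dehydrogenase, ACADSB (0.92), of branched-chain fatty acid oxidation, and SLC47A1 (0.91), a cation exporter. The mean of the 10 genes was followed most closely by RXRA (0.97), the retinoid X receptor, MAN2A2 (0.97), of N-glycan processing, and ANPEP (0.96), a membrane peptidase.

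Among other apolipoproteins, 5 of 13 tested fell at 240 min and 1 rose (edgeR), with a median log2 change of -0.16. The background for this and the following lists is all genes tested, of which 20.4% were called lower and 20.6% higher. SAA4, a serum amyloid protein of HDL, fell by 0.55 on the log2 scale, APOL3 by 0.42, APOF by 0.31 and APOL6 by 0.22. The SAA4 fall was near the threshold (edgeR adjusted p = 0.0479) and was not called by DESeq2 (adjusted p = 0.186). SAA4 had only 1.36 to 2.51 CPM but 102 to 122 TPM, a mismatch whose cause was not tested. APOC1, which sits beside APOE on chromosome 19, fell by 0.16. APOL4 was the gene that rose (log2 change 1.14), at under 1 CPM. CLU, the most counted of this group, did not pass the test (-0.06, edgeR adjusted p = 0.554), nor did the low-expressed APOA4 (0.36, edgeR adjusted p = 0.0764). The count that fell depended on the method: 1 with DESeq2, 1 with upper-quartile scaling and 0 without 0 min replicate 2. APOC2 and APOC4 had 0 counts in every library while the TPM of APOC2 ran from 0 to 539.6, and both overlap a readthrough gene in the annotation, so no change is given for them.

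**Figure D4:**
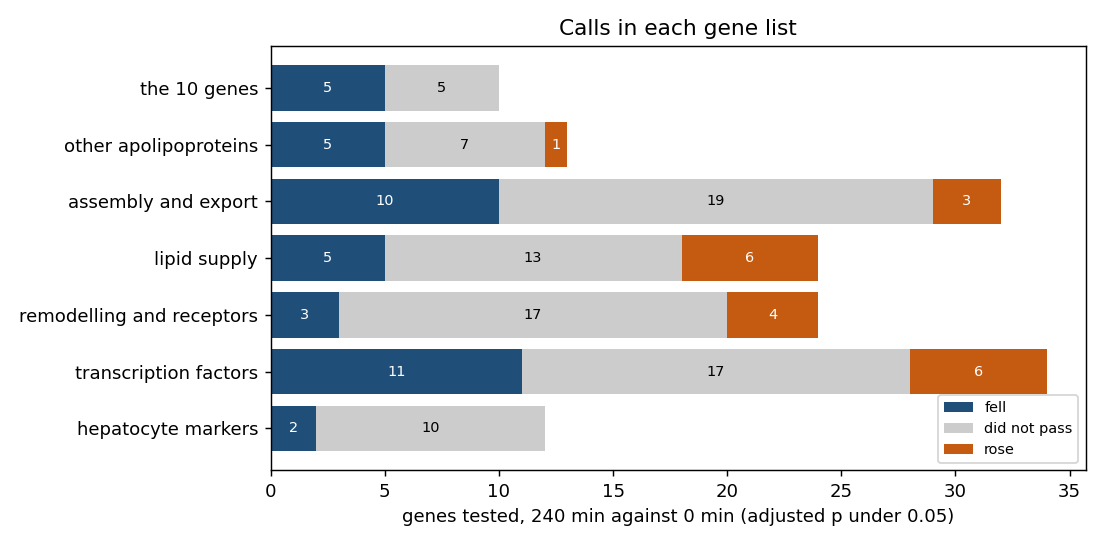
Number of genes in each list that fell, did not pass or rose at 240 min against 0 min (edgeR, adjusted p under 0.05), drawn as stacked bars from 0. Of the 10 genes 5 fell and 0 rose, of the assembly and export genes 10 fell and 3 rose, and of the lipid supply genes 5 fell and 6 rose. Over all genes tested, 20.4% fell and 20.6% rose.

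The machinery that folds, loads and exports the particle was mixed, with 10 of 32 genes lower and 3 higher (edgeR) and a median log2 change of -0.02. MIA2, a receptor that helps bulky cargo leave the endoplasmic reticulum, went from 42.5 ± 0.471 to 21.3 ± 2.12 CPM (SD, n = 2), a fall with a log2 change of -0.99 (edgeR adjusted p = 3.4e-08). Its relative MIA3 fell by 0.27, and the COPII coat genes SEC24B and SEC31A by 0.22 and 0.18. The related entry CTAGE5, counted higher than MIA2 (238 ± 4.41 CPM at 0 min, SD, n = 2), did not pass (-0.06, edgeR adjusted p = 0.344). P4HB, the protein disulfide isomerase that forms the small subunit of the MTTP complex, fell by 0.15 (edgeR adjusted p = 0.0297). SORT1, a sorting receptor that binds apoB, fell by 0.20. PLIN2, which coats lipid droplets, rose by 0.32 and HSPA5, the endoplasmic reticulum chaperone BiP, by 0.23. The COPII GTPase SAR1A rose by 0.16, whereas its paralogue SAR1B, mutated in chylomicron retention disease, had a log2 change of 0.05 that did not pass.

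Of 24 genes that supply lipid to the particle, 6 were higher and 5 lower (edgeR). DGAT1, of triglyceride synthesis, rose by 0.27 (edgeR adjusted p = 0.0133), while DGAT2 did not pass (0.02). ABHD5, the co-activator of the triglyceride lipase ATGL, rose by 0.53, while PNPLA2, which encodes ATGL, fell by 0.33 (edgeR adjusted p = 0.000165). LPIN1, a phosphatidate phosphatase, rose by 0.41. Its relative LPIN3 fell by 0.53, and CEPT1, of phospholipid synthesis, fell by 0.72.

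Plasma remodelling enzymes and receptors gave 4 higher and 3 lower of 24 tested (edgeR). LRP8, an apoE receptor, rose from 33.4 ± 3.26 to 83.4 ± 1.38 CPM (SD, n = 2), a log2 change of 1.33 (edgeR adjusted p = 3.5e-11). LIPG, the endothelial lipase and a relative of LIPC, rose by 0.87. C19orf80, the older symbol of ANGPTL8, an insulin-induced inhibitor of lipoprotein lipase, rose by 1.5, from 1.02 ± 0.267 to 3.08 ± 0.335 CPM (SD, n = 2). The remnant receptor LRP1 fell by 0.27.

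Of 34 transcription factors known to act on these genes, 6 rose and 11 fell (edgeR), with a median of -0.10. HNF4A, a main activator of APOB, MTTP and APOC3, rose by 0.30 (edgeR adjusted p = 0.000101). CEBPA rose by 1.12, the co-activator gene PPARGC1B by 1.74, FOXA1 by 0.45 and SREBF1 by 0.37. Transcripts of the forkhead factors FOXO1, FOXO3 and FOXO4 fell by 0.22, 0.26 and 0.84, and that of PPARGC1A, which coactivates FOXO1, fell by 1.04. NR0B2, NR1H2 and NR2F1 fell by 0.67, 0.65 and 0.61, more than FOXO1 and FOXO3. The forkhead genes FOXA2 (-0.03) and FOXA3 (0.004) did not pass. Under spike-in scaling these lists had few calls: 2 factors rose and 5 fell, and 0 assembly genes rose and 1 fell.

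Other secreted hepatocyte proteins were examined in the same libraries. Of 12 hepatocyte markers 2 fell and 0 rose at 240 min (edgeR), AHSG by 0.40 and AMBP by 0.25, and the list had a median log2 change of -0.12. ALB was just outside the threshold (-0.29, edgeR adjusted p = 0.0503). Dropping replicate 1 of 240 min shifted the median of the 12 hepatocyte markers to -0.26. With replicate 2 dropped instead, this median became 0.03. Replicate 2 of 240 min also held the lowest CPM of the series for APOB, MTTP, APOE, APOM, APOH and LIPC. APOA1, APOA2, APOA5 and APOC3 were lowest in 30 min replicate 2. Of the 8 tested markers of other cell types 2 fell, PDGFRB by 0.53 and ACTA2 by 0.30. The part of these shifts in the changes of the 10 genes was not tested.

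Of the 10 genes, 4 lie in known gene clusters. On chromosome 11, APOA5, APOC3 and APOA1 span 116660086 to 116708338 (hg19) together with APOA4, and none of the 4 passed the test at 240 min. Their neighbours BUD13 and ZPR1 rose by 0.41 and 0.35 (edgeR), while SIK3 did not pass (-0.02). APOA1-AS, which overlaps APOA1 on the other strand, did not pass (-0.28), and the methods state a stranded kit counted with the strand set to reverse. On chromosome 19, APOE and APOC1 fell, as did PVRL2 (by 0.23), while TOMM40, which lies between PVRL2 and APOE, rose by 0.26 (edgeR). Over both clusters 3 of 13 genes tested rose and 3 fell.

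The IR immunoprecipitation allowed the question of whether the receptor was bound near these genes. Of the 10, 4 had a region within 5 kb of the gene, where 15.7% of 13847 genes did. With 1 library and no replicate, this is a description without error. The highest of them lay just upstream of APOA1 with a score of 160 that ranked 590 among 1971 regions. That same region is the one counted for APOC3, 4590 bases away, so the 4 genes rest on 3 regions. The others were at chr1:161193956-161194465 upstream of APOA2 (score 32, rank 1626) and at chr6:31620108-31620442 at the upstream end of APOM (score 35, rank 1571).

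APOA2 and APOM, both low in the ranking of bound regions, were among the 5 genes that fell, whereas APOA1 and APOC3 did not pass at any time. For APOE the nearest region was 14096 bases away and for APOA5 45241 bases. The nearest was 406245 bases from MTTP, 430734 from APOB, 650034 from APOH and 985151 from LIPC. Counting only regions with a score above the median left 2 of the 10 genes, APOA1 and APOC3, both through the shared region. Of 13847 genes, 8.79% had such a region.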

How the data were processed

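RNA-seq and ChIP-seq of HepG2 were processed by the authors on hg19. Per the labels and the study's methods, reads were trimmed with Trim Galore 0.6.4, aligned with STAR 2.6.1d and counted per gene with featureCounts 1.6.4, and the deposited counts are not normalized. The 92 ERCC rows were left out of library totals. The authors' TPM came from StringTie. Regions bound by IR were aligned with BWA 0.7.17-r1188, called with MACS2 2.2.7.1 in 1 library and annotated with HOMER, and the deposited score is the one of that table. On the RNA libraries the extraction text of the labels names the kit that the methods give for ChIP-seq, and the treatment text gives 5 min for every time, so times were taken from the titles.

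Counts were fitted with edgeR 4.0.16 in R 4.3.3 (TMM, its default filter on low counts, quasi-likelihood F-test) in a joint model of all 10 libraries, with Benjamini-Hochberg adjustment over 13852 genes and a threshold of 0.05. Intervals are 95% intervals from the moderated SE. Genes of other lists are named where they were called at 240 min with a mean of at least 1 CPM, at most 4 per list by size of change, and further members were chosen after their values were seen. The 10 genes and all lists were chosen with earlier results of these data known. Promoter windows came from GENCODE start sites on GRCh37. Profiles were compared over genes averaging 5 CPM or more. On simulated counts with 200 changed genes (240 min against 0 min, 13739 genes), 88% of those changed by 1 on the log2 scale and 67% of those changed by 0.5 were recovered. DESeq2 1.42.0, limma 3.58.1 on log2(TPM + 1), other filters and scalings, thinning, a GC and length correction and leaving out each library were the alternatives. The 2 libraries of each time were further apart than sampling alone gives (chi-square per degree of freedom 2.86 to 6.47). Some items are not reported here.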

Additional observations from a re-analysis of the deposited data

How the results depend on the processing

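Of the 10 genes, 5 were called at 240 min against 0 min. The count was 1 with ERCC scaling and 2 with limma on log2(TPM + 1), with a pseudocount of 0.1 or with a mean TPM of at least 1, and 2 to 6 when 1 library was left out. Against 30 min the 3 calls became 0 with ERCC scaling and 1 with each limma fit (1 to 5 leaving out a library). At 30 min 2 genes, APOA2 and APOM, were called without the filter on low counts, by DESeq2 and with the replicate block, alone or with GC content and length corrected (0 to 2 leaving out a library), and 2 were called at 5 min without the filter. For any time the 3 calls became 6 without the filter, 0 with ERCC scaling, 1, 0 and 0 with the limma fits, and 5 with the replicate block and GC correction (2 to 6 leaving out a library). The replicate numbers did not pair the libraries (correlations of -0.115 to 0.133 over 10 pairs of times), and the replicate block left 5 genes called at 240 min, with MTTP at -0.23. The median of the 10 genes was -0.24 to -0.10 against 0 min and -0.24 to 0.038 against 30 min leaving out a library. With ERCC scaling it was -0.30 against 0 min. Calls over all genes moved as well. Against 0 min, 5676 at 240 min became 1059 with ERCC scaling and 4584, 4526 and 4462 with limma. Against 30 min, 5297 became 917 with ERCC scaling and 4572, 4494 and 4443 with limma. At 30 min, 46 became 160 without the filter and 59 and 62 with the block. At 5 min, 0 became 144 of 20553 without the filter. For any time, 5308 became 6029 without the filter, 1279 with ERCC scaling, 3734, 3652 and 3595 with limma and 5479 with block and GC correction.

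Signs turned for genes near 0. APOB at 240 min against 0 min was 0.018 with upper-quartile scaling, 0.031 with each limma fit and 0.015 and 0.014 with GC correction without and with the block (-0.091 to 0.065 leaving out a library). Against 30 min it was 0.015 with upper-quartile scaling, 0.0046 with ERCC scaling, 0.0070 with limma and 0.042 with GC correction (-0.091 to 0.064 leaving out a library). Leaving out a library also turned APOC3 (-0.069 to 0.35) and APOH (-0.33 to 0.050) against 0 min. Against 30 min it turned APOA2 (-0.12 to 0.053), APOA5 (-0.25 to 0.10), APOC3 (-0.092 to 0.51), APOA1 (-0.23 to 0.16), APOH (-0.27 to 0.11) and APOM (-0.28 to 0.034). Regions with a score above the median left 2 of the 10 genes near IR, where 8.79% of 13847 genes had one. The cause of these differences was not tested. Counts of the gene lists under other scalings were chosen after seeing the data. Changes under 0.5 on the log2 scale, the size of all those of the 10 genes, were not part of the simulation.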
